A study of Mus musculus with 6 samples.

Results

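Of the 27179 gene rows counted in A20 cells, 8 were expressed in wild-type cells and nearly lost from every library of cells carrying the TETact-v3 gene activation system. They were chosen from the raw counts as CPM, a gene's count divided by the library's total over all genes and multiplied by 1000000. A gene was taken if it reached at least 2 CPM in both wild-type libraries and lay, in each of the 4 TETact-v3 libraries, at least 8-fold below the lower wild-type value. The genes were Hbb-bs, Hbb-b1, Adm2, Gpr165, Mpp4, Zfp941, P2ry14 and Apc2, out of 10024 genes with a symbol at 2 CPM or more in both wild-type libraries. Mitochondrial genes and rows without a symbol were not eligible, and 1 further gene that met the limits was set aside and is not described here. The fall from wild type to TETact-v3 is therefore the way the genes were found, and it is given below as a description.

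A20 is a B cell lymphoma line of a BALB/C mouse. Polyadenylated RNA was sequenced from 3 groups with 2 libraries each, namely wild-type A20 without any transduction, A20 with TETact-v3 and a non-targeting control sgRNA, and A20 with TETact-v3 and an sgRNA against the Cd4 promoter. In TETact-v3 cells the catalytic domain of the DNA demethylating enzyme TET1 is brought to dCas9 through a SunTag array, and the p65-hsf1 activator is brought to aptamers in the sgRNA. The control sgRNA cells carry this machinery too, so that lentiviral transduction, enrichment by cell sorting, the transgenes and any guide separate both TETact-v3 groups from wild type and cannot be told apart in this design. The study states that the libraries came from 2 independently repeated samples.

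The libraries held between 23194920 and 121623410 counts, with both control sgRNA libraries the deepest, so that 3 counts, used here as the floor of detection, corresponded to between 0.0247 and 0.129 CPM. Cd4 stood at 877 and 834 CPM in the Cd4 sgRNA libraries and between 0.733 and 1.34 CPM in the other 4, which checks the Cd4 sgRNA labels. It was low both in wild type (0.743 and 0.733 CPM) and with the control sgRNA (1.04 and 1.34 CPM). The labels of these groups are thus not checked by it. All 8 B cell markers (Cd79a, Cd79b and others) were at 2 CPM or more in both wild-type libraries. Their summed level was 2000 and 2020 CPM in wild type and between 1210 and 1390 CPM in the TETact-v3 libraries. Mitochondrial genes took 2.65% and 2.69% of the counts in wild type and between 5.96% and 11.5% in TETact-v3 cells, with the highest share in control sgRNA replicate 2. These values move with the comparison of wild type and TETact-v3, and their part in it was not tested. In bulk RNA, fewer cells expressing a gene and less RNA of it per cell cannot be told apart.

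The 8 genes have varied known roles, and only the beta-globin genes share one. Hbb-bs and Hbb-b1 encode adult beta-globin, the oxygen carrier of red cells. Adm2 encodes a secreted peptide of the calcitonin family, Gpr165 an orphan G protein-coupled receptor and P2ry14 a receptor for UDP-sugars. Mpp4 encodes a membrane scaffold of the guanylate kinase family known from photoreceptors, Apc2 a relative of the tumour suppressor Apc that binds beta-catenin and microtubules, and Zfp941 a zinc finger protein. DNA methylation falls mainly on cytosines followed by guanine (CpG), and promoters differ widely in how many CpG they hold.

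Since TETact carries an enzyme that acts on methylated CpG, the promoters of the genes are shown with their CpG in capitals. RefSeq's promoter table for GRCm38.p6 (the mm10 build) held 7 of the 8 genes, all except Hbb-b1. The 120 bases before the annotated start are printed 5′ to 3′ on the strand of the gene for the 2 promoters with the fewest CpG (Hbb-bs and P2ry14) and for those with the most (Gpr165 and Apc2).
Hbb-bs (chr7:103827929-103828048, minus strand): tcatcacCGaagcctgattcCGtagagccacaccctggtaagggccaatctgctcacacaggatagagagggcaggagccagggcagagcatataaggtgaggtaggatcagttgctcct
P2ry14 (chr3:59153493-59153612, minus strand): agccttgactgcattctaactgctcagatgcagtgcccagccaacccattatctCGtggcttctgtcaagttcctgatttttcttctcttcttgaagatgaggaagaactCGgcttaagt
Gpr165 (chrX:96713348-96713467, plus strand): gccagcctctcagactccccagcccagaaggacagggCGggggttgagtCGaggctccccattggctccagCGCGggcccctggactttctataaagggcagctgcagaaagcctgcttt
Apc2 (chr10:80295836-80295955, plus strand): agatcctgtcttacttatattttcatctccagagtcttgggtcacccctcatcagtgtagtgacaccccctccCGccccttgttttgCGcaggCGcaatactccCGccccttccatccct

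Over the whole window of 300 bases, from 250 before to 50 after the start, Hbb-bs held 2 CpG, P2ry14 4, Mpp4 and Zfp941 5 each, Adm2 7, Gpr165 8 and Apc2 14. The median of the 7 was 5, beside 22 over 7942 promoters of genes at 2 CPM or more in wild type and 7 over all 27025 genes with a promoter. The ratio of observed to expected CpG, a usual measure of CpG islands, lay between 0.108 in Hbb-bs and 0.56 in Apc2. None of the 7 (0 of 7) reached 0.6, a ratio reached by 79.2% of the promoters of expressed genes and by 36.5% of all promoters. A mirrored rule took genes at 2 CPM or more in all 4 TETact-v3 libraries. Both wild-type libraries had to lie at least 8-fold below the lowest of these, without having to be silent. Of 24 promoters of genes chosen by it, 75.0% reached the ratio of 0.6. Where several starts were listed the farthest upstream was used, and of the 4 starts of Apc2 another one reached 0.643 with 21 CpG, while those of Mpp4 and P2ry14 held at most 5 and 4. DNA methylation itself was not analysed here.

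**Figure D1:**
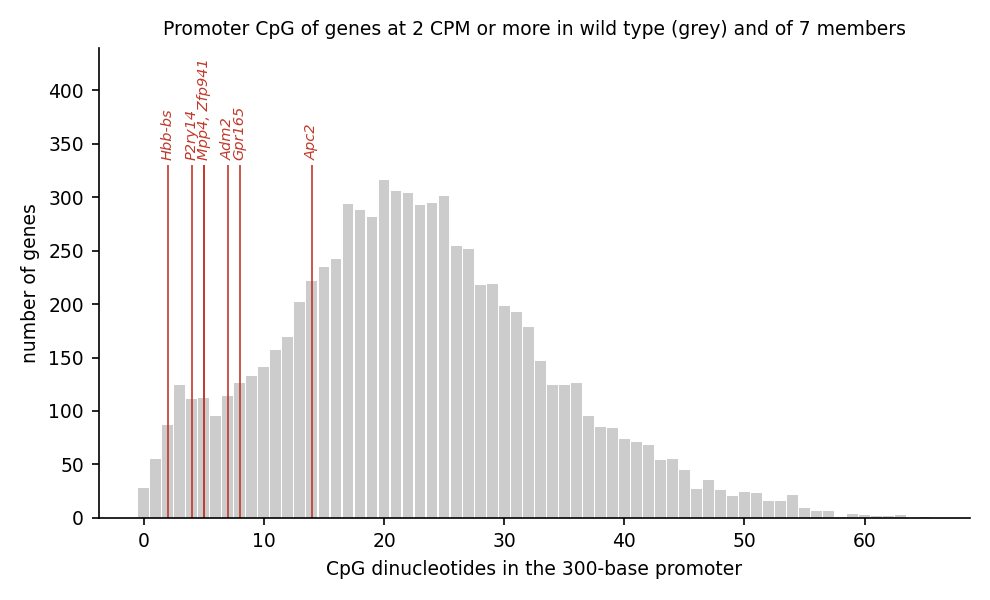
Number of CpG dinucleotides (x axis) in the 300-base promoter of genes at 2 CPM or more in both wild-type libraries (grey bars, number of genes on the y axis), with red lines at the values of the 7 genes that have a promoter entry. All 7 lie below the median of 22, between 2 for Hbb-bs and 14 for Apc2.

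Short promoter motifs were searched as letters on both strands of the same 300 bases. TATAA was found in 3 of the 7 promoters (Hbb-bs, Gpr165 and Apc2), in 12% of those of expressed genes and in 25.5% of all. CCAAT was found in 3 (Hbb-bs, Gpr165 and Zfp941), against 40.6% and 38.0%, and CACCC in 5, against 61.3% and 56.8%. In the printed stretch of Hbb-bs the letters CACCC began 90 bases before the start, those of CCAAT began 76 bases before it and those of TATAA began 29 bases before it. In that of Gpr165 the letters TATAA began 30 bases before the start. Such matches describe the letters of the window and are not binding sites.

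The beta-globin genes were the most abundant of the 8. Hbb-bs (chr7:103826523-103827928) stood at 19.6 and 18.5 CPM in wild type, at 1.22 and 1.42 CPM with the Cd4 sgRNA and at 0.904 and 2.17 CPM with the control sgRNA. Hbb-b1, which has no position on a reference chromosome in the annotation used, stood at 20.4 and 18.1 CPM, at 1.5 and 1.09 CPM and at 1.06 and 2.06 CPM in the same order. Wild type was far above all 4 TETact-v3 libraries, whose groups overlapped for both genes. The lowest and the highest of the 4 were the replicates of the control sgRNA for both genes. Adult beta-globin genes share sequence. Of the 66-base windows of the Hbb-bs transcript, the read length of the study, 64.8% also occur in Hbb-bt, the other adult beta-globin gene of the reference, which has no row of its own in the counts. Reads of the adult beta-globin genes may thus have been divided between the rows in a way that the sources used here do not give. Whether both rows stand for separate genes in A20 was not tested, and they are not read as independent losses. Summed over both rows, beta-globin reached 40 and 36.6 CPM in wild type, 2.72 and 2.52 CPM with the Cd4 sgRNA and 1.97 and 4.23 CPM with the control sgRNA. Hbb-b1 took between 43.4% and 55.2% of this sum in all 6 libraries.

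**Figure D2:**
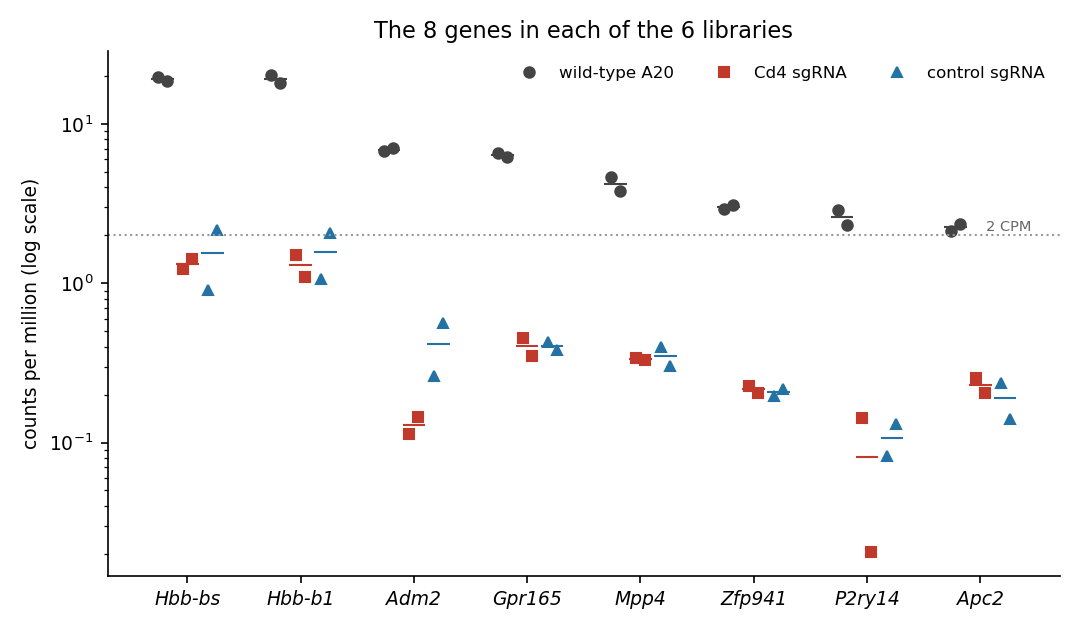
CPM (y axis, log scale) of the 8 genes (x axis) in each library, with wild type as grey circles, Cd4 sgRNA as red squares and control sgRNA as blue triangles, and short lines at the mean of each group. Every wild-type point lies above 2 CPM, while Hbb-bs at 2.17 and Hbb-b1 at 2.06 CPM in control sgRNA replicate 2 are the highest TETact-v3 points.

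Other genes of red cells had low counts or did not reach the 8-fold limit. Hba-a1, an adult alpha-globin, had 38 and 29 counts in wild type (0.763 and 1.25 CPM) and between 15 and 51 counts in the TETact-v3 libraries (0.371 to 0.477 CPM). Its fitted log2 fold change was -1.08 with the control sgRNA and -1.29 with the Cd4 sgRNA, and neither passed the threshold (adjusted p = 0.068 and 0.059, edgeR). The embryonic globin Hbb-bh1 had between 0.690 and 0.743 CPM in wild type and between 0.368 and 0.986 CPM in TETact-v3 cells. Gata1, the master regulator of red cell genes, had 0 counts in both wild-type libraries and at most 9 in any other, and Klf1, which activates beta-globin in red cells, stayed between 0.170 and 0.542 CPM in all 6. Among 10 regulators, enzymes and membrane proteins of red cells, Hemgn alone was at 2 CPM or more in both wild-type libraries, at 3.70 and 3.75 CPM there, at 3.57 and 3.8 CPM with the Cd4 sgRNA and at 6.14 and 7.69 CPM with the control sgRNA, where it was higher (log2 fold change 0.95, adjusted p = 0.014, edgeR). Epor, the erythropoietin receptor, stood at 1.91 and 2.67 CPM in wild type, at 0.765 and 1.07 CPM with the Cd4 sgRNA, where it was lower (log2 fold change -1.27, adjusted p = 0.032, edgeR), and at 1.73 and 1.40 CPM with the control sgRNA. Of the 10 genes 4 were tested, and the other two passed in neither comparison. Over the 4 erythroid markers (Hba-a1, Hbb-bs, Gata1 and Klf1) the summed level was 20.2 and 20.7 CPM in wild type and between 1.86 and 3.28 CPM in TETact-v3 cells. Hbb-bs was the only one of them at 2 CPM or more in wild type. At 19.6 and 18.5 CPM it made up most of the wild-type sum. Since Hbb-bs was chosen for its fall, nothing is read from the fall of the sum.

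Adm2 (chr15:89322720-89324731) showed the widest difference between the TETact-v3 groups. It had 336 and 163 counts in wild type, or 6.75 and 7.03 CPM. With the Cd4 sgRNA 4 and 7 counts remained, or 0.113 and 0.144 CPM, and with the control sgRNA 32 and 52 counts, or 0.263 and 0.563 CPM. The 3 groups did not overlap, with both Cd4 sgRNA libraries lowest. Adm, the related peptide adrenomedullin, did not fall. It stood at 102 and 98.3 CPM in wild type, 121 and 112 CPM with the Cd4 sgRNA and 190 and 256 CPM with the control sgRNA, where it was higher than in wild type (log2 fold change 1.21, adjusted p = 0.0044, edgeR). Calcrl, the receptor of both peptides, stood between 5.86 and 10.0 CPM in all 6 libraries and passed the threshold in neither comparison with wild type, while Ramp1, Ramp2 and Ramp3, which form the receptor with it, never exceeded 6 counts.

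The receptors Gpr165 and P2ry14 kept few counts in TETact-v3 cells, between 16 and 52 for Gpr165 and between 1 and 12 for P2ry14. Gpr165 (chrX:96713468-96719388) stood at 6.61 and 6.21 CPM in wild type, at 0.453 and 0.351 CPM with the Cd4 sgRNA and at 0.428 and 0.379 CPM with the control sgRNA. Its 4 TETact-v3 libraries lay close together and the groups overlapped. P2ry14 (chr3:59114623-59153492) had 143 and 54 counts in wild type, or 2.87 and 2.33 CPM, then 5 and 1 counts with the Cd4 sgRNA and 10 and 12 with the control sgRNA. The TETact-v3 values ran from 0.0206 to 0.142 CPM, and the single count in Cd4 sgRNA replicate 2 was the only one of 32 member values in TETact-v3 libraries at or under the floor of 3 counts. P2ry14 was also the gene with the lowest ratio, its highest TETact-v3 value being 6.08% of its lower wild-type value. It overlaps Med12l, which had between 10 and 62 counts per library.

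These 2 receptors stood among 123 genes named as G protein-coupled receptors (Gpr, Adgr, P2ry, S1pr and Lpar), of which 23 were at 2 CPM or more in both wild-type libraries. Of 49 tested, 11 were lower and 6 higher with the control sgRNA, and 10 were lower and 4 higher with the Cd4 sgRNA, both receptors included. Over all genes tested, 13.6% were lower and 15.7% higher with the control sgRNA, and 11.8% were lower and 11.3% higher with the Cd4 sgRNA. S1pr2, a receptor that confines germinal centre B cells, was lower in both comparisons (log2 fold changes of -0.90 and -1.19, adjusted p = 0.0073 and 0.0046, edgeR), at 81.6 and 74.3 CPM in wild type and between 32.0 and 44.6 CPM in TETact-v3 cells. Within the P2Y family P2ry10, at 40.8 and 38.5 CPM in wild type and between 19.5 and 37.6 CPM in TETact-v3 cells, passed the threshold in neither comparison with wild type, as did P2ry12, which had between 0.390 and 1.81 CPM. P2ry10b, at 1.67 and 2.46 CPM in wild type and between 0.806 and 1.47 CPM in TETact-v3 cells, was lower with the control sgRNA (log2 fold change -1.09, adjusted p = 0.041, edgeR) and stood at -0.58 with the Cd4 sgRNA (adjusted p = 0.22).

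Mpp4 and Apc2 encode a scaffold and a binding partner of beta-catenin. Mpp4 (chr1:59120935-59163389) stood at 4.62 and 3.79 CPM in wild type, at 0.340 and 0.330 CPM with the Cd4 sgRNA and at 0.395 and 0.303 CPM with the control sgRNA. The groups of TETact-v3 libraries overlapped, and wild type was far above both. Of its relatives, Mpp1, Mpp5, Mpp6 and Mpp7 were expressed, and Mpp2 and Mpp3 never exceeded 43 counts. Mpp1 was lower with the Cd4 sgRNA (log2 fold change -0.86, adjusted p = 0.024, edgeR) and stood at -0.41 with the control sgRNA (adjusted p = 0.15). Mpp5 was higher with the control sgRNA (0.50, adjusted p = 0.038) and stood at 0.25 with the Cd4 sgRNA (adjusted p = 0.22), and Mpp6 was higher with both (0.31 and 0.35, adjusted p = 0.037 and 0.028). Mpp7 rose from 2.07 and 2.59 CPM in wild type to between 11.8 and 16 CPM in the TETact-v3 libraries, with log2 fold changes of 2.71 for the control sgRNA and 2.60 for the Cd4 sgRNA (adjusted p = 0.00092 and 0.0012, edgeR).

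Apc2 (chr10:80295956-80318257) had 106 and 55 counts in wild type, or 2.13 and 2.37 CPM, and was the member nearest to both limits. It stood at 0.255 and 0.206 CPM with the Cd4 sgRNA and at 0.238 and 0.141 CPM with the control sgRNA, groups that overlapped. It overlaps 2310011J03Rik, a gene of between 913 and 3218 counts per library, with which it shared 0 of its windows. Apc, its better known relative, was expressed about evenly, between 59.2 and 76.0 CPM in all 6 libraries, and Axin1, Gsk3a and Gsk3b of the complex that marks beta-catenin for destruction passed the threshold in neither comparison with wild type. Csnk1a1, a kinase of this complex, was lower with the control sgRNA (log2 fold change -0.30, adjusted p = 0.043, edgeR) and stood at -0.12 with the Cd4 sgRNA (adjusted p = 0.36). Ctnnb1, beta-catenin itself, stood at 527 and 520 CPM in wild type and between 303 and 386 CPM in TETact-v3 cells, with log2 fold changes of -0.55 and -0.49 for control and Cd4 sgRNA (adjusted p = 0.016 and 0.028, edgeR).

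Zfp941 (chr7:140807453-140822201) stood at 2.93 and 3.10 CPM in wild type, at 0.227 and 0.206 CPM with the Cd4 sgRNA and at 0.197 and 0.217 CPM with the control sgRNA. The 4 TETact-v3 values lay within 0.197 and 0.227 CPM, and their groups overlapped. It was the only member among 402 genes named Zfp, of which 289 were at 2 CPM or more in wild type. Of 320 Zfp genes tested, 31 were lower and 34 higher with the control sgRNA, and 19 were lower and 27 higher with the Cd4 sgRNA, beside the 13.6% lower and 15.7% higher, and the 11.8% lower and 11.3% higher, of all genes given above.

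Per kilobase of exon, the wild-type levels spanned a wide range. Hbb-b1 and Hbb-bs led, at a mean of 30.7 and 29.8 CPM per kb, and their replicates overlapped. Adm2 at 6.59 and Gpr165 at 2.01 CPM per kb followed, apart from their neighbours in the order. P2ry14 at 1.45 and Mpp4 at 1.36 CPM per kb overlapped, and Zfp941 at 0.772 and Apc2 at 0.248 CPM per kb came last. The median of expressed genes was 14.1 CPM per kb, so that all members except beta-globin were expressed below it, and Apc2 lay above 0.0499% of them.

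**Figure D3:**
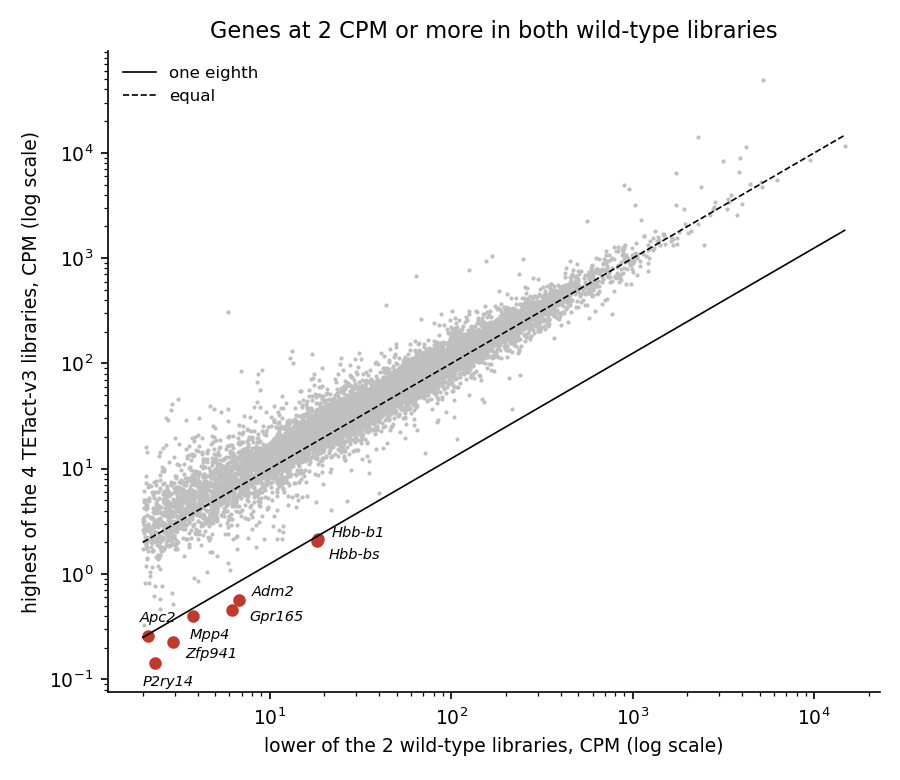
Highest CPM of the 4 TETact-v3 libraries (y axis, log scale) against the lower CPM of the 2 wild-type libraries (x axis, log scale) for genes at 2 CPM or more in both wild-type libraries (grey) and the 8 members (red). The dashed line marks equal values and the solid line the 8-fold limit, below which only the members lie among the genes plotted.

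Compared with wild type, the fitted log2 fold changes of the members ran from -4.57 to -3.48 with the control sgRNA (median -3.69) and from -5.68 to -3.27 with the Cd4 sgRNA (median -3.86), with a median of 0.00 over all 12430 genes tested in each. All 8 passed an adjusted p of 0.05 in edgeR's quasi-likelihood test in both, beside 13.6% of all genes lower with the control sgRNA and 11.8% lower with the Cd4 sgRNA. Since the rule used these contrasts, nothing is read from these counts. Both contrasts also share the wild-type libraries. The highest TETact-v3 value as a share of the lower wild-type value was 6.08% for P2ry14, 7.30% for Gpr165, 7.72% for Zfp941, 8.35% for Adm2, 10.4% for Mpp4, 11.4% for Hbb-b1, 11.7% for Hbb-bs and 12% for Apc2. With the Cd4 sgRNA, Apc2 lost its call without Cd4 sgRNA replicate 2 (adjusted p = 0.066) or wild-type replicate 1 (0.051), and P2ry14 without wild-type replicate 1 (0.062).

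Just outside the limit lay Reln at 14.7%, Ighv8-13 at 16%, Neurl3 at 17.1%, Clgn at 17.7% and Ctse at 18.0%. Reln, which encodes a large secreted glycoprotein, stood at 41.9 and 39.8 CPM in wild type and between 3.09 and 5.85 CPM in TETact-v3 cells. Its wild-type CPM was above that of any member. Per kilobase of exon it stood at 3.58 and 3.4 CPM in wild type, below both beta-globin genes and Adm2. Neurl3, a ubiquitin ligase of germinal centre B cells, stood at 215 and 217 CPM in wild type and between 22.4 and 36.8 CPM in TETact-v3 cells. Ctse, the aspartic protease cathepsin E, stood at 115 and 107 CPM and then between 18.3 and 19.2 CPM.

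The rule set a ceiling for both TETact-v3 groups but did not fix their difference, the change of the residual level with the guide against Cd4. It left out genes that stayed higher in 1 of these groups, so large differences were less likely among the members. The count of members passing is therefore given as a description. When both TETact-v3 groups were compared, none of the 8 genes passed the threshold (0 of 8, edgeR with Benjamini-Hochberg adjustment), beside 0.0724% of all 12430 genes. At an unadjusted p under 0.05 stood 1 member, Adm2, and 26.0% of all genes. Adm2 had a log2 fold change of -1.67 (SE 0.53, unadjusted p = 0.018, adjusted p = 0.14, edgeR), lower in 2 of 2 Cd4 sgRNA libraries. Among the others, Hbb-b1 differed by -0.32 (SE 0.36) and P2ry14 by -0.54 (SE 0.77) on the log2 scale, and Zfp941 and Gpr165 by 0.02 (SE 0.34) and -0.06 (SE 0.26), with adjusted p between 0.58 and 0.97 over the 7. Summed beta-globin differed by -0.28 (SE 0.36, adjusted p = 0.63, edgeR). DESeq2 put Adm2 past the threshold (log2 fold change -1.69, adjusted p = 0.042), in a fit that called 11.5% of all genes.

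This comparison hinged on the control sgRNA libraries, which differed from each other. Between these replicates the CPM of Hbb-bs, Adm2 and Hbb-b1 differed by 2.40, 2.14 and 1.94-fold, with replicate 2 higher. The ratio of replicate 2 to replicate 1 was 1.58 for P2ry14 and 1.10 for Zfp941, and it was below 1 for Gpr165 (0.887), Mpp4 (0.769) and Apc2 (0.591). Without control sgRNA replicate 1, Adm2 (log2 fold change -2.14, adjusted p = 5.3e-05), Hbb-bs (-0.76, 0.00058) and Hbb-b1 (-0.76, 0.00095) passed in edgeR, in a fit that called 60.5% of all genes. Without control sgRNA replicate 2 no member passed, and Hbb-bs and Hbb-b1 changed direction, to 0.55 and 0.25 on the log2 scale. In these fits the lone control sgRNA library is assumed to vary like the other groups. An exact permutation test of 2 against 2 libraries cannot give a p below 0.333.

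**Figure D4:**
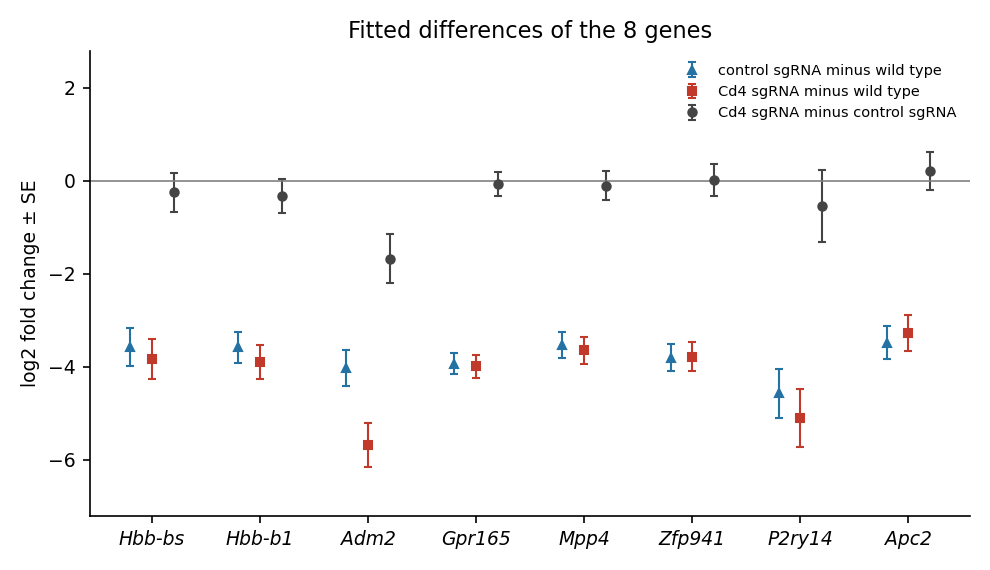
Log2 fold change with its standard error (y axis) of the 8 genes (x axis) from edgeR, for control sgRNA minus wild type (blue triangles), Cd4 sgRNA minus wild type (red squares) and Cd4 sgRNA minus control sgRNA (grey circles), with error bars of 1 SE. The first 2 contrasts lie between -5.68 and -3.27, and the third lies between -1.67 for Adm2 and 0.21 for Apc2.

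Some genes met the same limits in 1 TETact-v3 group alone. With the Cd4 sgRNA these were 11 further genes (Rgs8, Ighv8-13, Klf6, Sncb, Cpq, Catsperd, C3, Reln, Tspan9, Clgn and Pcyt1b), and with the control sgRNA 1, Lpar5. None of them passed when the TETact-v3 groups were compared (0 of 11 and 0 of 1, edgeR), beside 0.0724% of all genes tested. With so few genes passing, these counts do not show whether the groups differ or are alike. C3, a complement component, stood at 42.3 and 45.4 CPM in wild type, at 4.45 and 3.38 CPM with the Cd4 sgRNA and at 5.99 and 32.5 CPM with the control sgRNA, whose replicate 2 lay near wild type. Klf6, a transcription factor, stood at 71.8 and 74.5 CPM, at 8.35 and 7.47 CPM and at 10.5 and 14.1 CPM in the same order.

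On the chromosomes the members were scattered. The 7 with a position lay on 6 chromosomes, with Hbb-bs and Zfp941 both on chromosome 7, and 0 pairs were next to each other among expressed genes. Of the 3 nearest expressed genes on each side (42 in all), 5 were lower and 2 higher in both TETact-v3 groups at an adjusted p of 0.05 in edgeR. Among all 10009 genes tested at 2 CPM or more in wild type, 8.28% were lower and 7.43% higher in both. The log2 ratio of mean TETact-v3 to mean wild-type CPM ran from -2.59 to 1.03 over these neighbours. At the low end stood Trim30a, an interferon-inducible gene 581 kb from Hbb-bs, with log2 fold changes of -2.24 for the control sgRNA and -2.95 for the Cd4 sgRNA (adjusted p = 0.00089 and 0.00053). Close neighbours of other members had smaller ratios. Sbf1, 7.41 kb from Adm2, had a log2 ratio of -0.21, Tmem237, 0.513 kb from Mpp4, of 0.07, and Rps15, 1.84 kb from Apc2, of -0.36. Bet1l, 31.2 kb from Zfp941, was lower in both groups, with log2 fold changes of -0.70 and -0.70 (adjusted p = 0.016 and 0.021).

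**Figure D5:**
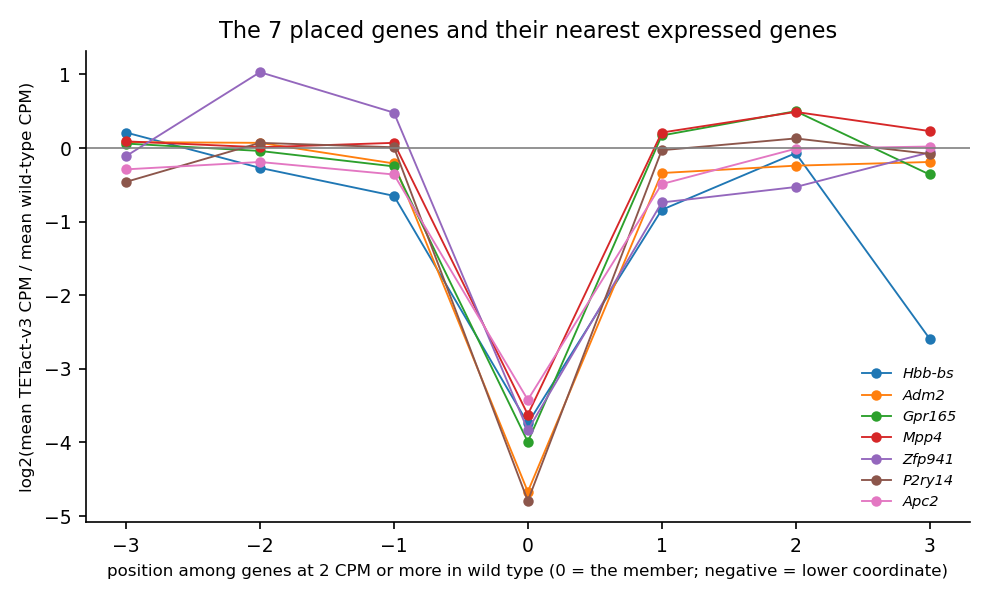
Log2 ratio of the mean CPM of the 4 TETact-v3 libraries to the mean of the 2 wild-type libraries (y axis) for the 7 placed genes (position 0) and the 3 nearest expressed genes on each side (x axis, by rank along the chromosome). The 42 neighbours lie between -2.59 and 1.03, Trim30a at position 3 from Hbb-bs being the lowest.

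With only 8 members among 10024 genes with a symbol at 2 CPM or more in wild type, most lists would hold none. Nothing is therefore read from a list without a member. Of 16 gene lists set out for the description, 13 held no member. These included B cell identity and receptor genes (26 at 2 CPM or more in wild type), germinal centre B cell genes (14), MHC class II presentation (13), interferon-stimulated genes (14), the integrated stress response (14), cathepsins (9), solute carriers (156) and non-coding genes (462). Of the 13 genes of MHC class II presentation, 8 were lower and 0 higher with the control sgRNA, and 10 were lower and 0 higher with the Cd4 sgRNA, beside 13.6% and 11.8% of all genes lower. The medians of the list were -0.41 and -0.59 on the log2 scale, beside 0.00 over all genes, and no gene of it reached the 8-fold limit. The 3 lists with a member were the G protein-coupled receptors, the Zfp genes and the sex chromosome genes. The last held Gpr165 among 319 genes at 2 CPM or more in wild type. Of its 403 genes tested, 41 were lower and 70 higher with the control sgRNA, beside 13.6% and 15.7% of all genes, and 50 were lower and 61 higher with the Cd4 sgRNA, beside 11.8% and 11.3%.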

How the data were processed

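Reads were mapped by the authors to mm10 using Rsubread. The deposited raw counts, for 27179 Entrez gene rows, were made by featureCounts from RefSeq exons supplied with that package. Whether strand was used is not given in the sources used here, so reads of overlapping or near-identical genes may be divided uncertainly. Symbols and positions came from RefSeq GRCm38.p6, with 25275 rows matched. CPM was computed from the column totals. Genes were filtered with filterByExpr after leaving out mitochondrial, ribosomal RNA and unannotated rows, scaled by TMM and tested with edgeR 4.0.16 (glmQLFit and glmQLFTest, robust), with a two-sided test, a term for each group and Benjamini-Hochberg adjustment over 12430 genes. Alternatives used voomLmFit of limma 3.58.1 (the test of the study), DESeq2 1.42.0, other scalings and filters, and each library left out. Fits were tested on simulated counts. Replicate numbers were not taken as pairs. The members, the 16 lists and the tests were chosen with earlier results of these data known, and the gene families beside each member, a crossed block and the summed beta-globin after values were seen. Named genes were all members, the 5 genes just outside the limit, members of those lists and families and Cd4, with neighbours and genes meeting the limits in 1 group added after values were seen. The floors cover counting error only. The standard errors and p-values set a difference against the spread between libraries, which was estimated from 2 libraries per group. A table repeating the counts was not used, and some overlaps between genes are not reported here.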

Additional observations from a re-analysis of the deposited data

How the results depend on the processing

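The number of members was 31 with a 4-fold limit, 1 (P2ry14) with a 16-fold limit, 4 with a wild-type minimum of 5 CPM, 19 with Cd4 sgRNA as the only TETact-v3 group, and 8 to 13 with a library left out (13 without control sgRNA replicate 2). With a minimum of 1 CPM it was 12, with TMM-scaled totals 9, and with totals free of mitochondrial and ribosomal RNA genes 6, both beta-globin genes being lost. The causes were not tested.

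Fewer genes passed with only the 2 groups compared in control sgRNA against wild type (1006 higher, 824 lower), and more did in Cd4 sgRNA against wild type (3786 higher, 3701 lower). With a library left out, the ranges were 255 to 4190 higher and 149 to 3959 lower in the former, 138 to 4160 higher and 83 to 3692 lower in the latter, and 1 to 3867 higher and 0 to 3879 lower in Cd4 sgRNA against control sgRNA. In that comparison, where 2 genes were higher and 7 lower, voomLmFit gave 1 higher, DESeq2 538 higher and 889 lower, no expression filter 237 and 436, no annotation filter 5 and 12, and the 2 groups alone 1 and 0. Members lower there numbered 1 in DESeq2 and 0 to 3 with a library left out (3 without control sgRNA replicate 1). The cause was not tested.

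Deviations of same-numbered libraries correlated at -0.137, 0.0201 and -0.0322, so the numbers were not taken as pairs. With the replicate block, 1 gene was higher and 0 lower between Cd4 sgRNA and control sgRNA, and with crossed numbers, added after seeing the data, 1 and 4. The block changed no call of a member.

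All 128 refits of the members against wild type with the control sgRNA kept direction and call, as did 125 of 128 with the Cd4 sgRNA, the other 3 being the lost calls of Apc2 and P2ry14 given above. Between Cd4 sgRNA and control sgRNA, 8 of 127 values changed sign, each with a library left out: Hbb-bs (0.55), Hbb-b1 (0.25) and Apc2 (-0.08) without control sgRNA replicate 2, Mpp4 (0.08) and Zfp941 (-0.07) without control sgRNA replicate 1, Gpr165 (0.12) and P2ry14 (0.38) without Cd4 sgRNA replicate 2, and Zfp941 (-0.03) without Cd4 sgRNA replicate 1. Another 4 passed the threshold that had not, namely Adm2 in DESeq2 and, without control sgRNA replicate 1, Adm2, Hbb-bs and Hbb-b1. The share of promoters at a CpG ratio of 0.6 was 79.2% over expressed genes and 36.5% over all genes. With a library left out, the ranges of these genes were -0.76 to 0.55 (Hbb-bs), -0.76 to 0.25 (Hbb-b1), -0.23 to 0.12 (Gpr165), -0.25 to 0.08 (Mpp4), -0.07 to 0.11 (Zfp941), -2.27 to 0.38 (P2ry14) and -0.08 to 0.62 (Apc2). Depth limits the residual values, since 3 counts are 0.0619 to 0.0849 CPM in the Cd4 sgRNA libraries, near the level of P2ry14.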
